A study of Xenopus tropicalis x Xenopus laevis and Xenopus laevis and Xenopus tropicalis with 8 samples.

Results

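Cyclins A, B and E, the Cdc25 phosphatases and the Chk1 kinase were examined in stage 9 embryos of *X. laevis*, *X. tropicalis* and their reciprocal hybrids. The genes were taken as the 10 symbols ccna1, ccna2, ccnb1, ccnb2, ccne1, ccne2, cdc25a, cdc25b, cdc25c and chek1, and every entry of the transcript table that carried one of these symbols was used. This gave 42 of 34647 entries, of which 29 were *X. laevis* transcripts (of 20611) and 13 were *X. tropicalis* transcripts (of 14036), and all 10 symbols were present in both species. Polyadenylated RNA had been sequenced from whole embryos collected at 9 h post-fertilization, in 8 libraries. The 4 groups were embryos of each species and both hybrids, namely le × ts (*X. laevis* egg, *X. tropicalis* sperm) and the reciprocal te × ls (*X. tropicalis* egg, *X. laevis* sperm), with 2 libraries per group (n = 2), numbered 1 and 3. No other genetic change or treatment was named for any group. As background, le × ts embryos are viable, whereas te × ls embryos die as their own genome begins to be transcribed. The labels do not say whether the libraries of a group came from separate clutches, so p-values measure only the spread between these samples.

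The cleavage divisions of a frog embryo alternate DNA synthesis and mitosis with no gap phases, and they run on RNA and protein that the mother stored in the egg. Cyclins bind and switch on cyclin-dependent kinases, B-type cyclins with Cdk1 for entry into mitosis, A-type cyclins for DNA synthesis and mitosis, and E-type cyclins with Cdk2 for DNA synthesis. Cdc25 phosphatases remove the inhibitory phosphates that Wee1 and Myt1 kinases place on these Cdks, and Chk1, which becomes active at the mid-blastula transition, acts against Cdc25 and lengthens the cycle.

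Values are TPM, the share of a library's transcripts that belongs to an entry, on a fixed scale, so a level here is a level of polyadenylated RNA relative to the rest and not an amount per embryo. In whole embryos, fewer cells with a transcript and less of it per cell cannot be told apart. The authors kept only reads that mapped without a mismatch to 1 entry. Reads shared by 2 entries of a gene, or by both species, were therefore lost, and the table does not say which entries of a symbol are homeologs and which are overlapping assemblies. For each symbol the TPM of all entries of the egg's species was summed in each library and is called the egg-species sum. A difference was called at an adjusted p under 0.05 (limma, Benjamini-Hochberg over everything tested) with more than a 2-fold change, on the scale of log2(TPM + 1). An exact permutation test of 2 against 2 libraries cannot give a p below 0.333 and was not used.

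The libraries held RNA of the egg's species that their labels name, with 99.0% to 99.9% of TPM in its entries. In each cross this share was slightly lower in both hybrid libraries than in both libraries of the egg species, and the rest of TPM lay in entries of the other species. *X. tropicalis* entries held 0.678% and 1.02% of TPM in le × ts replicates 1 and 3, against 0.293% and 0.332% in *X. laevis*. *X. laevis* entries held 0.355% and 0.429% in te × ls, against 0.124% and 0.230% in *X. tropicalis*. Of 6 RNAs stored in the egg, such as vegt and npm2, all 6 were at 1 TPM or more in all 8 libraries, with sums of 1759 to 2180 TPM (egg-species entries). Of 12 genes of differentiated tissue, 7 had a sum of 0 in every library. The sum over these 12 genes, 0 to 151 TPM, was carried by tnnt2, at 97.8 to 146 TPM in the libraries from *X. tropicalis* eggs. Among 6 genes of the ovarian follicle, 4 had a sum of 0 everywhere, and the sum of all 6 reached at most 0.505 TPM. No entry was at 0 in all 8 libraries, so a sum of 0 can mean that no entry of the egg's species carries the symbol. Such sums therefore do not show that the RNA is absent. Relative numbers of reads, estimated from the steps between very low TPM values, placed le × ts replicate 3 at 0.439 of *X. laevis* replicate 1 and *X. tropicalis* replicate 3 at 0.323 of *X. tropicalis* replicate 1, so these are the libraries in which low values are least precise. Absolute depth is unknown from TPM.

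All 10 genes had RNA at stage 9 in every group. Together they made up 1.02% to 1.19% of TPM in the 4 libraries from *X. laevis* eggs and 1.53% to 1.75% in the 4 from *X. tropicalis* eggs. In *X. laevis* embryos the egg-species sums ran from ccnb1 (mean 4152 TPM) through ccna1 (2407), ccna2 (1742), ccnb2 (1676), ccne1 (686), cdc25c (421), cdc25a (219), chek1 (207) and ccne2 (90.8) to cdc25b (11.7 TPM). Neighbours in this order did not overlap between libraries, apart from ccna2 with ccnb2 and cdc25a with chek1. In *X. tropicalis* embryos the order was ccnb1 (mean 6544 TPM), ccnb2 (3472), ccna1 (3257), ccna2 (1478), ccne1 (688), cdc25a (496), cdc25c (194), chek1 (144), ccne2 (61.9) and cdc25b (5.69 TPM), and there ccnb2 and ccna1 overlapped. ccnb1 was thus the highest and cdc25b the lowest member in both species.

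**Figure D1:**
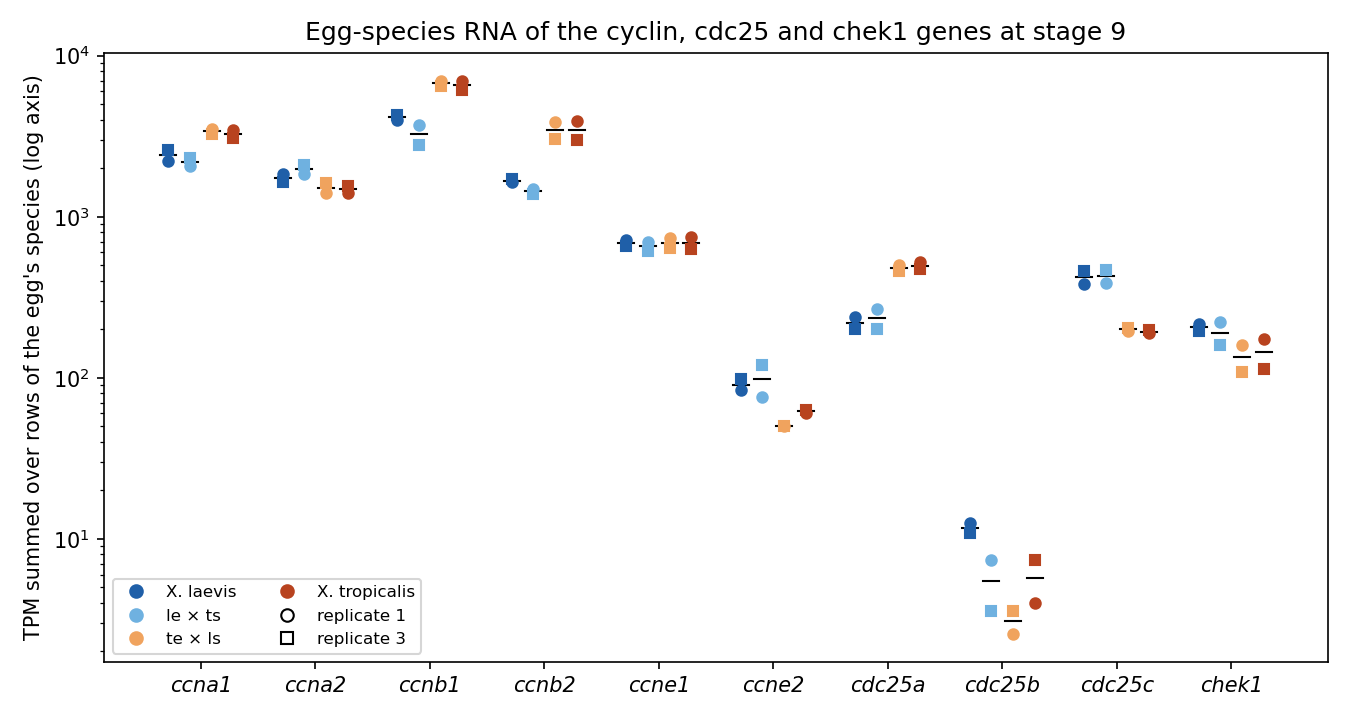
Egg-species sums of the 10 genes in all 8 libraries (TPM, log axis). Colours mark the group, circles replicate 1 and squares replicate 3, and short lines the group means. ccnb1 lies highest, at 2784 to 6995 TPM, and cdc25b lowest, at 2.56 to 12.5 TPM.

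Of the A-type cyclins, ccna1 encodes the form of the oocyte and early embryo and ccna2 the form that persists in somatic cells. Values are given for replicate 1 first and replicate 3 second throughout. In *X. laevis* the ccna1 sum was 2225 and 2590.2 TPM, and in le × ts 2072 and 2307 TPM. From *X. tropicalis* eggs it was 3513 and 3256 TPM in te × ls and 3448 and 3066 TPM in *X. tropicalis*. In both crosses the hybrid and its egg species overlapped, while all 4 libraries from *X. tropicalis* eggs lay above all 4 from *X. laevis* eggs. For ccna2 the sums were 1836 and 1648 TPM in *X. laevis* and 1841 and 2092 TPM in le × ts, so that the hybrids lay just above. They were 1407 and 1618 TPM in te × ls and 1408 and 1548 TPM in *X. tropicalis*, which overlapped. The ratio of ccna2 to ccna1, taken within each library, was 0.636 to 0.907 in *X. laevis* eggs and 0.400 to 0.505 in *X. tropicalis* eggs, without overlap.

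The *X. laevis* ccna1 sum came from 3 entries that differed between replicates in opposite directions. Entry Ueno2012104cells_000116230 held most of it, at 1403 and 1695 TPM in *X. laevis* and 1314 and 1343 TPM in le × ts. TeperekTkacz201205_000587943 was at 539 and 791 TPM in *X. laevis* and 497 and 858 TPM in le × ts. Taira201203ovary_000072422 went the other way, at 283 and 104 TPM in *X. laevis* and 261 and 106 TPM in le × ts. In the last 2 entries the libraries of like number lay together and the numbers apart, so the replicate spread was larger than the difference between hybrid and egg species. The 3 *X. laevis* entries of ccna2 did not separate the groups. TXGP201107_000184791 was at 919 and 688 TPM in *X. laevis* and 900.1 and 619 TPM in le × ts. Ueno201210st09_000204494 was at 905 and 939.5 TPM in *X. laevis* and 925 and 1442 TPM in le × ts, and the single high library was le × ts replicate 3. The minor entry Ueno201302st08_000520919 was at 12.7 and 20.6 TPM in *X. laevis* and 15.2 and 31.1 TPM in le × ts, again highest in le × ts replicate 3. *X. tropicalis* has 1 entry each for ccna1 (BarbosaMorais2012_XENTRkidney_000020859) and ccna2 (Tan201204_XENTRc2cell16_000012571), whose values are the sums given.

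The B-type cyclins drive Cdk1 into mitosis, and their destruction lets the cell leave it. The ccnb1 sum was 4002 and 4303 TPM in *X. laevis* and 3728 and 2784 TPM in le × ts, with both hybrid libraries below both *X. laevis* libraries and replicate 3 the lowest. It was 6995 and 6469 TPM in te × ls and 6946 and 6142 TPM in *X. tropicalis*, which overlapped. The ccnb2 sum was 1645 and 1707 TPM in *X. laevis* and 1485 and 1394 TPM in le × ts, where the hybrids again lay below. In *X. tropicalis* eggs ccnb2 was split by library number and not by sperm. It was 3899 and 3046 TPM in te × ls replicates 1 and 3 and 3938 and 3007 TPM in *X. tropicalis* replicates 1 and 3.

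The *X. laevis* ccnb1 sum came from 4 entries. The main entry, Ueno201302st35_000602691, was at 2005 and 2188 TPM in *X. laevis* and 1857 and 1444 TPM in le × ts, and it made up 49.8% to 51.9% of the sum in these 4 libraries. Taira201203st09_000131268 was at 959 and 1065 TPM in *X. laevis* and 905 and 683 TPM in le × ts. Ueno2012106cells_000191252 was at 731 and 825 TPM and 694 and 512 TPM in the same groups. All 3 were lower in both hybrid libraries. The fourth, Ueno2012102cells_000097611, at 308 and 224 TPM in *X. laevis* and 272 and 144 TPM in le × ts, overlapped, and its share of the sum was 7.69% and 7.29% in the replicate 1 libraries of the 2 groups and 5.21% and 5.19% in the replicate 3 libraries. The *X. tropicalis* sum of ccnb1 came from Tan201204_XENTRc2st09_000024360, at 4423 and 3892 TPM in te × ls and 4349 and 3659 TPM in *X. tropicalis*. Its other entry, Tan201204_XENTRc1st11b_000021806, was at 2572 and 2577 TPM in te × ls and 2598 and 2483 TPM in *X. tropicalis*, so neither entry separated the groups.

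Among the 4 *X. laevis* entries of ccnb2, Quigley201212_001176232 held 75.3% to 83.2% of the sum, at 1257 and 1411 TPM in *X. laevis* and 1118 and 1160.0 TPM in le × ts. Ueno201210testis_000124302 was at 120.3 and 118 TPM in *X. laevis* and 107 and 96.2 TPM in le × ts. Taira201203kidney_000080110 was at 56.4 and 55.5 TPM in *X. laevis* and 52.0 and 43.3 TPM in le × ts. These 3 were lower in both hybrid libraries. Quigley201212_001665721, at 211 and 123 TPM in *X. laevis* and 208 and 94.0 TPM in le × ts, differed between replicate numbers and overlapped between the groups. The single *X. tropicalis* entry was Tan201204_XENTRc2st10_000020237.

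E-type cyclins act with Cdk2 at the start of DNA synthesis, and in *Xenopus* maternal cyclin E1 protein is known to disappear around the mid-blastula transition. The ccne1 sum was 718 and 654 TPM in *X. laevis*, 699.7 and 612 TPM in le × ts, 734 and 636 TPM in te × ls and 746 and 629.7 TPM in *X. tropicalis*. All 4 groups overlapped, and replicate 1 was the higher library in each. Its *X. laevis* entries were JGIv16_16078223, at 488 and 408 TPM in *X. laevis* and 464 and 276 TPM in le × ts, and Taira201203st09_000140799, at 229.6 and 246 TPM and 236 and 336 TPM in the same groups. In le × ts replicate 3 the first was lowest and the second highest, and the sum was the lowest of the 4 libraries from *X. laevis* eggs. The *X. tropicalis* entry was Tan201204_XENTRc2cell4_000016274.

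ccne2 was much lower, at 83.5 and 98.1 TPM in *X. laevis*, 76.0 and 120.5 TPM in le × ts, 50.1 and 50.4 TPM in te × ls and 60.4 and 63.4 TPM in *X. tropicalis*. Both te × ls libraries lay below both *X. tropicalis* libraries. The *X. laevis* entry Ueno201210st10_000096314 was at 51.1 and 53.8 TPM in *X. laevis* and 45.2 and 54.0 TPM in le × ts. Taira201203st25_000092862 was at 23.3 and 22.3 TPM in *X. laevis* and 22.4 and 27.4 TPM in le × ts. Neither separated the groups. Taira201203st12_000078658, at 9.06 and 21.9 TPM in *X. laevis* and 8.37 and 39.1 TPM in le × ts, was higher in replicate 3 of both groups. The *X. tropicalis* entry was Xetrov14025321m.

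The phosphatases followed another order in each species. cdc25a, whose protein is translated from maternal RNA in the early embryo and is degraded after Chk1 activation, was at 238 and 200.2 TPM in *X. laevis*, 266 and 202 TPM in le × ts, 501 and 461 TPM in te × ls and 521 and 471 TPM in *X. tropicalis*. cdc25c, which activates Cdk1 with cyclin B at mitosis, was at 385 and 458 TPM in *X. laevis*, 386 and 468 TPM in le × ts, 195 and 204 TPM in te × ls and 188 and 199 TPM in *X. tropicalis*. For both genes each hybrid overlapped its egg species and the species of the egg did not overlap. The ratio of cdc25c to cdc25a within a library was 1.45 to 2.32 in *X. laevis* eggs and 0.362 to 0.443 in *X. tropicalis* eggs, so that cdc25c was the higher of the pair in all 4 libraries of the first and the lower in all 4 of the second. The *X. laevis* cdc25a sum was almost all from Taira201203testis_000108529, at 238 and 200.2 TPM in *X. laevis* and 265 and 202 TPM in le × ts, and the *X. tropicalis* entry was Xetrov14027935m.

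Of the 3 *X. laevis* entries of cdc25c, the main one, TeperekTkacz201206_000455203, was at 239.6 and 237 TPM in *X. laevis* and 248 and 325 TPM in le × ts. Among the *X. laevis* entries of the 10 genes that were tested, it was the only one with both le × ts libraries above both *X. laevis* libraries. Taira201203testis_000142596 was at 48.8 and 48.9 TPM in *X. laevis* and 47.0 and 45.1 TPM in le × ts, slightly below. Taira201203testis_000177627, at 96.3 and 172 TPM in *X. laevis* and 90.2 and 97.2 TPM in le × ts, was set apart by *X. laevis* replicate 3 alone. The *X. tropicalis* entry was ENSXETT00000014678.

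cdc25b, another member of the phosphatase family, was close to the lower limit of the data. Its sum was 12.5 and 10.9 TPM in *X. laevis* and 7.38 and 3.58 TPM in le × ts. It was 2.56 and 3.58 TPM in te × ls and 3.97 and 7.42 TPM in *X. tropicalis*. In each cross both hybrid libraries lay below both libraries of the egg species. The entry Quigley201212_000803069 carried the *X. laevis* difference, at 8.76 and 7.24 TPM in *X. laevis* and 4.65 and 0.704 TPM in le × ts, with le × ts replicate 3 lowest. The other 2 *X. laevis* entries of cdc25b and the 3 of *X. tropicalis* were each under 3 TPM in every library, as was a minor *X. laevis* entry of cdc25a, at 0 to 0.472 TPM, and these 6 are the entries that did not reach 5 TPM in both libraries of any group.

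chek1, the kinase that acts against Cdc25 at the mid-blastula transition, was at 217 and 196 TPM in *X. laevis* and 221 and 159 TPM in le × ts. In te × ls it was 159.9 and 108 TPM and in *X. tropicalis* 174 and 113 TPM. Replicate 1 was the higher library in all 4 groups, and the groups overlapped within each cross. The *X. laevis* entries MK201406_0033430, at 136 and 123 TPM in *X. laevis* and 142 and 108 TPM in le × ts, and Ueno201210ovary_000076822, at 80.3 and 73.3 TPM and 79.5 and 51.4 TPM, moved in parallel. The *X. tropicalis* entry was ENSXETT00000032528.

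**Figure D2:**
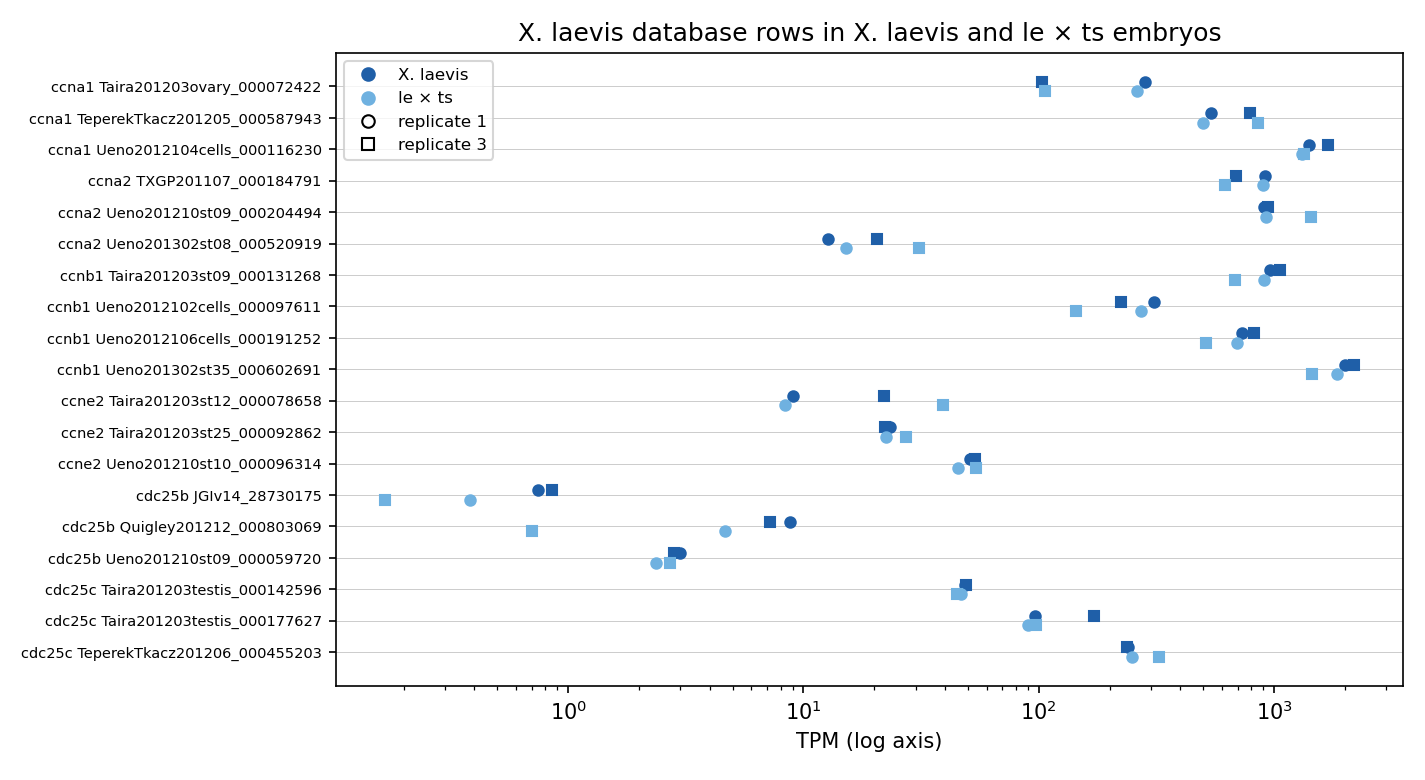
TPM (log axis) of each *X. laevis* transcript entry of 6 of the genes in *X. laevis* (dark) and le × ts (light) embryos, with circles for replicate 1 and squares for replicate 3. Of the 4 entries of ccnb1, 3 lie lower in both le × ts libraries, the ccna1 entry Taira201203ovary_000072422 is split by replicate number (283 and 104 TPM in *X. laevis*, 261 and 106 TPM in le × ts), and the cdc25b entry Quigley201212_000803069 is at 0.704 TPM in le × ts replicate 3.

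The first comparison asked whether the foreign sperm changed the RNA of the egg's species. No member was called in either cross. In le × ts against *X. laevis*, 0 of 10 egg-species sums were called, as were 0 of all 9685 sums tested (0%) with limma, where 70 sums and 1 member had an unadjusted p under 0.05. That member was cdc25b, at -1.03 ± 0.40 (log2 difference ± SE, 95% interval -1.98 to -0.08, n = 2 per group, adjusted p = 1 with limma). Its difference was -0.60 without le × ts replicate 3 and -1.47 without le × ts replicate 1. The difference of ccnb1 was -0.36 ± 0.18 (interval -0.80 to 0.07), that of ccnb2 -0.22 ± 0.19 (-0.67 to 0.23) and that of ccna2 0.17 ± 0.16 (-0.19 to 0.54), each with an adjusted p of 1 in the limma fit. Without le × ts replicate 3 the ccnb1 difference was -0.15, and without le × ts replicate 1 it was -0.58 with an adjusted p of 0.0857 (limma). The groups did not overlap for these 4 sums, ccna2 higher and the other 3 lower in le × ts, against 19% of all sums. The remaining 6 members differed by between -0.14 (chek1) and 0.08 (cdc25a) on the log2 scale. The 95% intervals of the 9 members other than cdc25b lay within -0.82 (chek1) and 0.65 (ccne2) on the log2 scale. A change of less than 2-fold could not be called whatever its interval, so smaller changes are not excluded. The median over the members was -0.10, beside 0.01 over all sums.

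In te × ls against *X. tropicalis*, 0 of 10 egg-species sums were called, beside 0 of 9685 (0%), where 82 sums and 0 members had an unadjusted p under 0.05 (limma). The largest differences were in cdc25b, at -0.68 ± 0.40 (log2 difference ± SE, interval -1.63 to 0.27), and ccne2, at -0.29 ± 0.24 (interval -0.86 to 0.28), both with an adjusted p of 1 (limma). That of cdc25b was -0.30 without *X. tropicalis* replicate 3 and -1.06 without *X. tropicalis* replicate 1. These were also the 2 sums whose groups did not overlap, against 17.6% of all sums. The sums share 1 estimate of the spread over all 8 libraries. The single *X. tropicalis* entry of ccne2, fitted on the 4 libraries of the cross, differed by -0.29 ± 0.11 (interval -0.60 to 0.01, unadjusted p = 0.0558 with limma) and was not called. The other 8 members lay between -0.09 (chek1) and 0.06 (ccna1). When the entries of the sperm's species were added, te × ls held 55.5 and 55.6 TPM of ccne2 in both species together, still below the 60.4 and 63.4 TPM of *X. tropicalis*. With the same addition, le × ts held 9.63 and 4.13 TPM of cdc25b, below the 12.5 and 10.9 TPM of *X. laevis*, whereas te × ls held 3.02 and 4.38 TPM against 3.97 and 7.53 TPM in *X. tropicalis*, which overlapped. The summed egg-species TPM of 6 genes first transcribed in the blastula was 54.6 and 61.7 in *X. laevis* against 34.9 and 33.5 in le × ts, and 146 and 269 in *X. tropicalis* against 47.2 and 102 in te × ls, with no test run. Of these genes, sia1, gs17 and bix1.2 had a sum of 0 in all 4 libraries from *X. laevis* eggs, and bix1.2 also in those from *X. tropicalis* eggs. A sum of 0 is also obtained where no entry of the egg's species carries the symbol. Absence of the RNA is therefore not shown, and the sums of the species may cover different genes. mix1 overlapped between the groups from *X. laevis* eggs, at 5.51 and 11.7 TPM in *X. laevis* and 5.33 and 13.99 TPM in le × ts. The lower sum of le × ts thus rests on sia2, at 34.6 and 36.8 TPM in *X. laevis* and 17.7 and 15.5 TPM in le × ts, and nodal3, at 14.5 and 13.3 TPM and 11.9 and 4.04 TPM. In a hybrid only 1 parent brings the genome of the egg's species, and these sums leave out the entries of the sperm's species. They are therefore no measure of all the RNA that a hybrid makes from these genes. The part of these genes in the cdc25b and ccne2 differences was not tested.

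The 2 crosses were then compared directly. A difference between them in the effect of the foreign sperm was called for 0 of 10 members and 0 of 9685 sums (0%), with 30 sums and 0 members at an unadjusted p under 0.05 (limma). For ccnb1 the difference between the crosses was -0.41 ± 0.26 (log2, interval -1.02 to 0.20, adjusted p = 1 with limma), and it was -0.20 without le × ts replicate 3 and -0.62 without le × ts replicate 1. For ccne2 it was 0.37 ± 0.34 (interval -0.43 to 1.18, adjusted p = 1 with limma), and 0.05 and 0.70 without the same libraries.

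**Figure D3:**
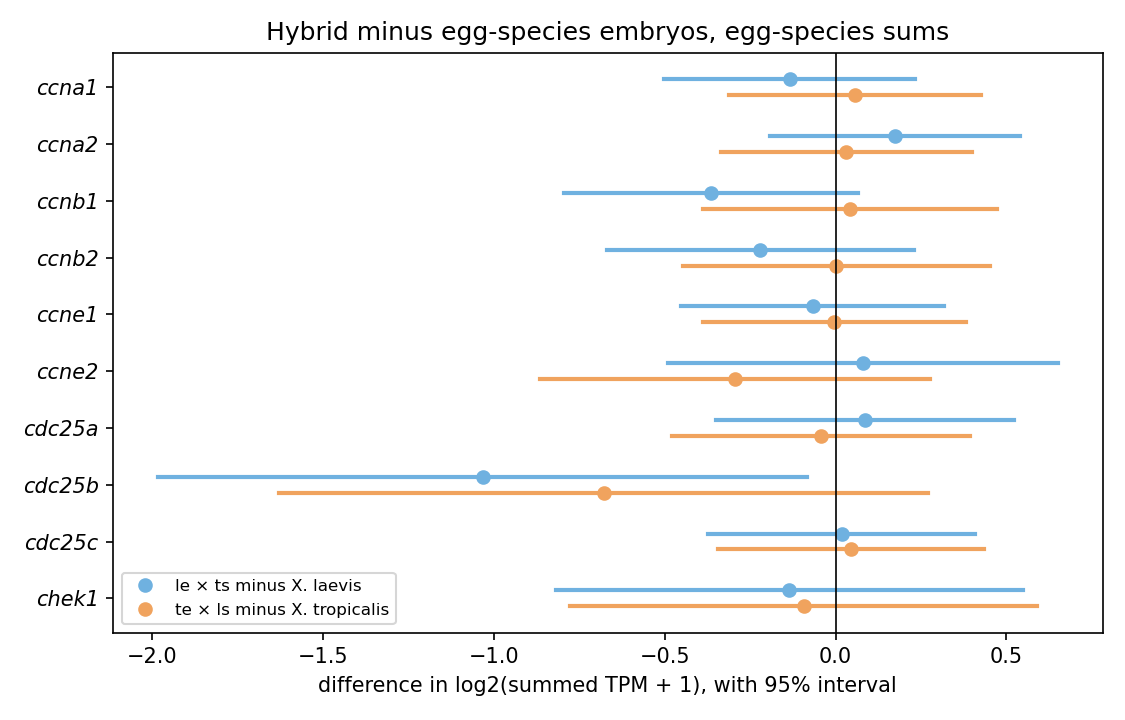
Difference in log2(summed TPM + 1) between hybrid and egg-species embryos for each gene, with its 95% interval from limma, for le × ts (blue) and te × ls (orange). All intervals but that of cdc25b in le × ts (-1.98 to -0.08) include 0.

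No single entry was called in le × ts either. Of the member entries, 33 were expressed well enough to be tested against *X. laevis* (27 of *X. laevis* and 6 of *X. tropicalis*), and 0 were called, beside 0 of 17526 (0%), with 209 entries and 0 members at an unadjusted p under 0.05 (limma). The authors, with edgeR and the same cutoffs, did call transcripts in this comparison, nearly all of them *X. tropicalis* transcripts that were higher in le × ts. A block for the replicate number gave 141 calls here. The 0 calls therefore do not show that nothing differed in le × ts. The groups did not overlap for 12 of the 33, 1 higher and 11 lower, against 19.7% of all entries. Among *X. laevis* entries alone, 10 of 27 lay lower and 1 higher, where 7.85% of all *X. laevis* entries lay lower and 10.9% higher. Entries of 1 gene are not independent, and 6 of the 10 belonged to ccnb1 and ccnb2. The largest difference was that of the cdc25b entry Quigley201212_000803069, at -1.53 (log2, adjusted p = 1 with limma), and it was -0.67 without le × ts replicate 3 and -2.40 without le × ts replicate 1.

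In te × ls, 16 member entries were tested (12 of *X. tropicalis* and 4 of *X. laevis*) and 0 were called, beside 0 of 12073 (0%), with 565 entries and 5 members at an unadjusted p under 0.05 (limma). Over all entries tested the groups did not overlap for 20.4%. Of the 12 *X. tropicalis* entries, 2 lay lower and 0 higher in te × ls, where 10.3% of all *X. tropicalis* entries lay lower and 7.19% higher. The 4 *X. laevis* entries, RNA of the sperm's species, passed the filter only through te × ls and so had to lie higher, and 4 of the 5 with a low unadjusted p were these entries, from which nothing is read. The 2 *X. tropicalis* entries that were lower were the *X. tropicalis* entry of ccne2 and the cdc25b entry Tan201204_XENTRc2st11_000009633, at 1.29 and 1.01 TPM in te × ls and 2.50 and 2.65 TPM in *X. tropicalis*.

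RNA of the sperm's species was near the background of the mapping for most members, with ccne2 and cdc25b apart. In te × ls the *X. laevis* ccne2 sum was 5.32 and 5.23 TPM, which is 5.86% and 5.76% of its level in *X. laevis* embryos, and it was listed at 0 in both *X. tropicalis* libraries. All 3 *X. laevis* entries contributed. Ueno201210st10_000096314 was at 2.81 and 2.62 TPM (log2 difference 1.89, adjusted p = 0.0884 with limma). Taira201203st25_000092862 was at 1.68 and 1.49 TPM (log2 difference 1.37, adjusted p = 0.153 with limma), and Taira201203st12_000078658 at 0.824 and 1.12 TPM. Each of the 3 was listed at 0 in both *X. tropicalis* libraries, so no fold change is given, and the fitted differences depend on the pseudocount. The first 2 entered the fit only through te × ls, so their p-values are given as a description. They were each called in 4 of 10 alternatives, with a highest adjusted p of 0.252 and 0.619 (limma). Nothing is read from these calls, because the filter had fixed the direction.

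The reverse cross gave an uneven ccne2 signal. The *X. tropicalis* entry was at 6.71 and 0.505 TPM in le × ts replicates 1 and 3, or 10.8% and 0.816% of its level in *X. tropicalis*, beside 0.0560 and 0.0490 TPM in *X. laevis*. Both le × ts libraries were thus above both *X. laevis* libraries, and replicate 3 was the lower of them. For cdc25b the *X. tropicalis* sum was 2.25 and 0.546 TPM in le × ts, 39.5% and 9.59% of its low level in *X. tropicalis*, and it was listed at 0 in both *X. laevis* libraries. In te × ls the *X. laevis* cdc25b sum was 0.463 and 0.793 TPM, 3.95% and 6.77% of its level in *X. laevis*, beside 0 and 0.111 TPM in *X. tropicalis*. These cdc25b values are too low to be measured well in single entries.

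For the other 8 members, the summed entries of the sperm's species stood far below their own level. They reached at most 0.257% of it in le × ts and 0.175% in te × ls. In embryos without that genome they reached 0.326% in *X. laevis* and 0.167% in *X. tropicalis*. The *X. tropicalis* ccna1 entry, for example, was at 3.47 and 7.48 TPM in le × ts and 4.81 and 8.99 TPM in *X. laevis*, which have no *X. tropicalis* genome. For ccnb1 the *X. tropicalis* sum was 8.68 and 14.3 TPM in le × ts and 8.65 and 14.2 TPM in *X. laevis*. Neither separated the groups. In le × ts the *X. tropicalis* sums of ccna2 and cdc25a lay below both *X. laevis* libraries. In te × ls the *X. laevis* ccna2 sum, at 3.05 and 2.49 TPM, lay above the 0.41 and 1.51 TPM of *X. tropicalis*. So did ccnb2 (1.58 and 2.20 against 0.533 and 0.956 TPM) and cdc25a (0.291 and 0.278 against 0.089 and 0 TPM). chek1 lay below, at 0.074 and 0.1 against 0.112 and 0.345 TPM. No test was run on these sums. The percentages of sums do not hold for every single entry. The minor *X. laevis* ccna2 entry Ueno201302st08_000520919 was at 0.204 and 0.278 TPM in te × ls, against 12.7 and 20.6 TPM in *X. laevis*, and was listed at 0 in *X. tropicalis*. The 2 *X. laevis* entries of these 8 members that entered the te × ls fit did so through the hybrid alone, and their values are a description. The *X. laevis* ccna2 entry Ueno201210st09_000204494 was at 2.07 and 1.76 TPM against 0.158 and 0.736 TPM in *X. tropicalis* (log2 difference 1.04, adjusted p = 0.595 with limma). The *X. laevis* ccnb2 entry Quigley201212_001176232 was at 1.45 and 2.20 TPM against 0.533 and 0.724 TPM (log2 difference 0.78, adjusted p = 0.850 with limma).

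**Figure D4:**
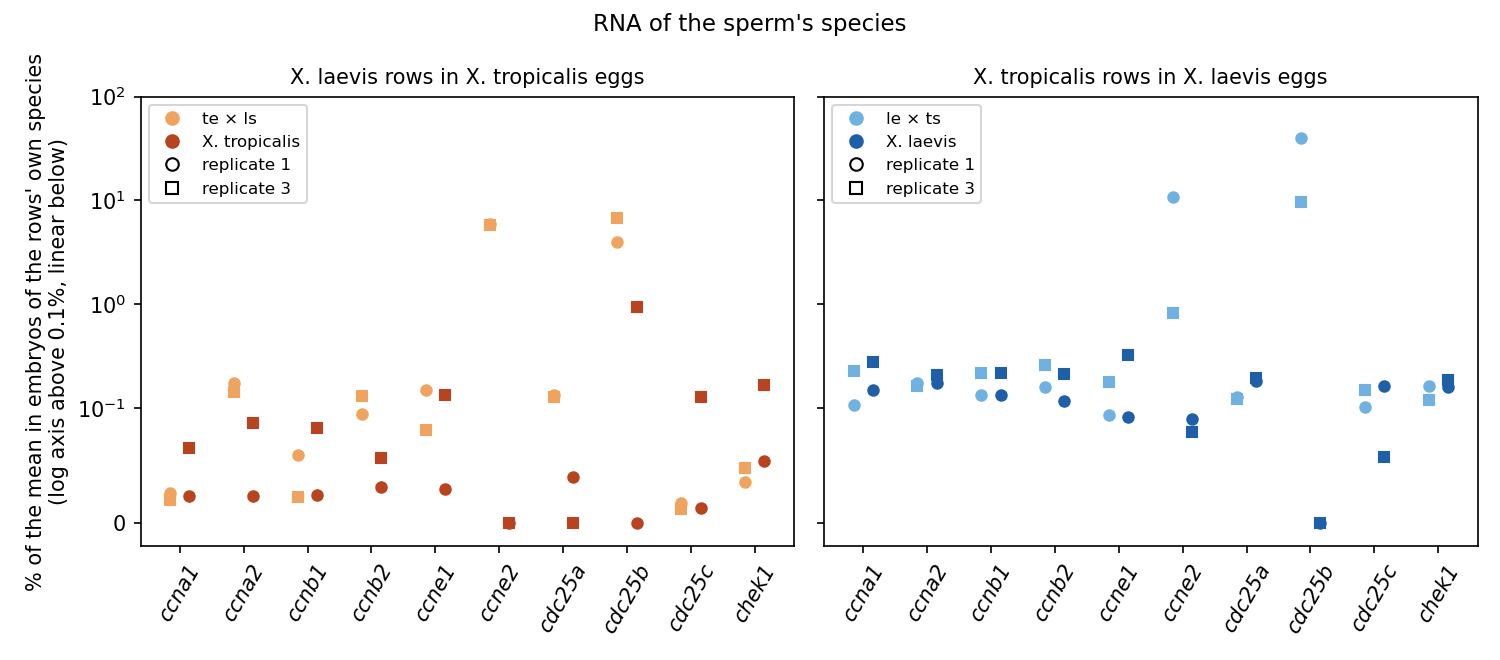
Summed TPM of the sperm's species as a percentage of the mean in embryos of that species, on an axis that is logarithmic above 0.1% and linear below. The left panel shows *X. laevis* entries in te × ls and *X. tropicalis*, the right panel *X. tropicalis* entries in le × ts and *X. laevis*. Only ccne2 and cdc25b pass 1% in a hybrid library, at 5.86% and 5.76% for ccne2 in te × ls and 10.8% and 0.816% in le × ts.

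Detection was counted as 1 TPM or more in both hybrid libraries and under 1 TPM in both libraries of the egg species. In te × ls, 4 of 27 *X. laevis* member entries at 1 TPM or more in *X. laevis* met it, 2 of ccne2 and 1 each of ccna2 and ccnb2, beside 365 of 15895 *X. laevis* entries (2.3%). The ccna2 and ccnb2 entries were at 905 to 1411 TPM in *X. laevis*. In *X. tropicalis*, which lacks that genome, they were already at 0.158 to 0.736 TPM. A fixed cut of 1 TPM takes no account of such abundance. In le × ts, 0 of 11 *X. tropicalis* member entries met it, beside 178 of 10988 (1.62%). Without le × ts replicate 3 the number was 2, beside 409 of 10988 (3.72%). The 2 were the entry of ccne2 and the cdc25b entry Tan201204_XENTRc2st11_000009633. With hybrid and egg species exchanged, 3 entries of any gene were counted in each cross.

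The third comparison was between the species of the egg, over the 4 libraries of each, 2 of the species and 2 of the hybrid from its eggs. Here 3 of 10 members were called, beside 4226 of 9685 sums (43.6%). The labels do not say whether these 4 libraries came from separate mothers. SDs, SEs and p-values therefore measure the spread between libraries and not between mothers. cdc25c was higher in *X. laevis* eggs, with a mean of 424 ± 44.9 TPM (SD, n = 4) against 197 ± 6.70 TPM, a log2 difference of 1.10 ± 0.12 (± SE, adjusted p = 0.000145 with limma). ccnb2 was lower, with 1558 ± 144 TPM against 3472 ± 515 TPM and a log2 difference of -1.15 ± 0.14 (adjusted p = 0.000235 with limma). cdc25a was lower as well, with 227 ± 31.5 TPM against 489 ± 27.5 TPM and a log2 difference of -1.11 ± 0.13 (adjusted p = 0.000236 with limma).

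Of the members that were not called, 5 had an adjusted p under 0.05 (limma) but a change of less than 2-fold. These were ccnb1 (-0.86 ± 0.13, adjusted p = 0.00084), ccna1 (-0.53 ± 0.11, adjusted p = 0.00406), ccne2 (0.73 ± 0.17, adjusted p = 0.00733), cdc25b (0.80 ± 0.29, adjusted p = 0.041) and ccna2 (0.31 ± 0.11, adjusted p = 0.0408), given as log2 differences ± SE from limma, negative where the sum was lower in *X. laevis* eggs. chek1 differed by 0.53 ± 0.21 (adjusted p = 0.0531 with limma), and ccne1 by -0.03 ± 0.12 (interval -0.30 to 0.24, adjusted p = 0.824 with limma). For 7 of the 10 members all libraries from one egg species lay above all from the other, against 67% of all sums, and the exceptions were ccne1, cdc25b and chek1. The median over all sums was 0.03. The 2 sums rest on different sets of entries, 2 to 4 per gene in *X. laevis* and mostly 1 in *X. tropicalis*, so reads lost between near-identical entries and a species difference in RNA cannot be told apart.

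**Figure D5:**
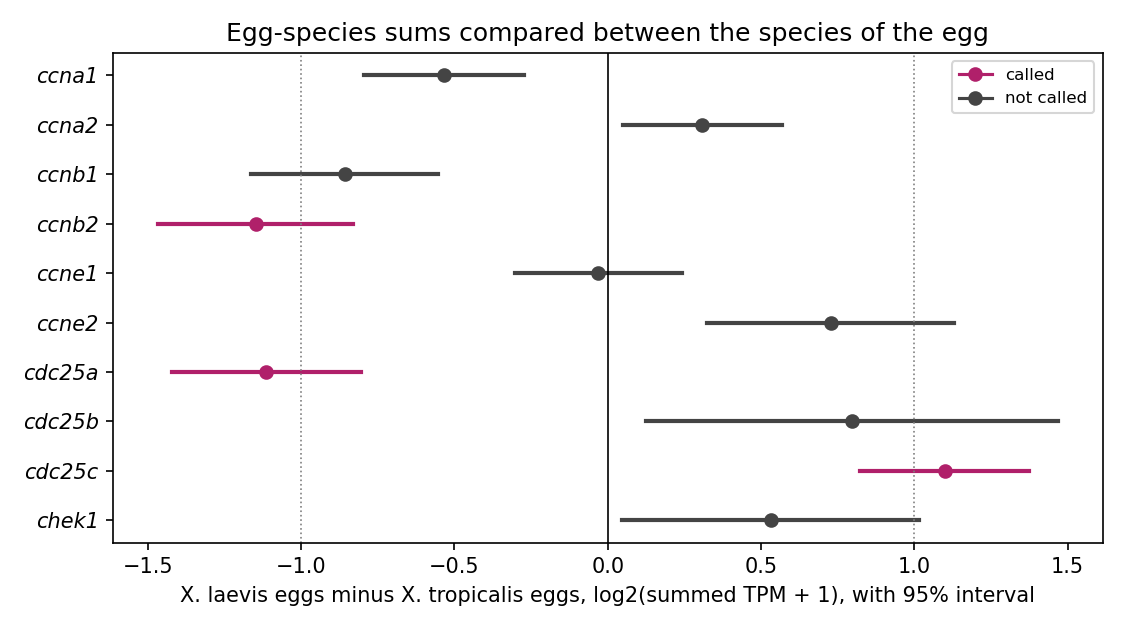
Difference in log2(summed TPM + 1) between libraries from *X. laevis* eggs and from *X. tropicalis* eggs for each gene, with its 95% interval from limma. Dotted lines mark a 2-fold change, and the 3 genes called are ccnb2 (-1.15), cdc25a (-1.11) and cdc25c (1.10).

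Other genes of the same machinery were counted in 5 lists, in the same fits. In either hybrid comparison, 0 genes of any list were called, beside 0% of all sums, and 1 gene changed more than 2-fold without overlap. This was cks1b, a small Cdk-binding subunit, at 18.6 and 31.5 TPM in *X. laevis* and 11.8 and 8.45 TPM in le × ts (log2 difference -1.20, adjusted p = 1 with limma), with both hybrid libraries below.

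Between egg species, 6 of 7 other cyclins tested were called. Higher in *X. laevis* eggs were ccng2 (log2 difference 3.75), ccng1 (3.72) and the D-type cyclin ccnd2 (1.02), and lower were ccnd1 (-4.29), ccnb3 (-2.15) and ccnh (-1.12), the partner of Cdk7. Of 16 Cdks, Wee1 kinases and other mitotic regulators, 3 were higher, namely wee1 (4.58), cks2 (2.59) and cks1b (1.16), and 3 were lower, namely cdk1 (-2.72), the meiotic kinase mos (-2.54) and the Polo kinase plk1 (-1.09). Their partners among the members did not go one way, since ccnb2 was lower together with cdk1 while cdc25c was higher. cks1b overlapped between the species of the egg. In *X. tropicalis* embryos, which have no *X. laevis* genome, *X. laevis* entries of cks2 held 88.5 and 147 TPM. The cks2 sum of the egg's species was 155 and 179 TPM there, so the size of the cks2 difference is uncertain. wee1 was at no more than 0.697 TPM in libraries from *X. tropicalis* eggs. The more abundant wee2 was not called and was lower in *X. laevis* eggs, at 650 to 889 TPM against 960 to 1219 TPM (log2 difference -0.54). Of 15 checkpoint genes and Cdk inhibitors, atrip (1.65) and mdm2 (1.47) were higher and cdknx (-2.92), cdkn1a (-1.63), rad1 (-1.32) and rad9a (-1.30) lower. In libraries from *X. laevis* eggs cdkn1a was at 0 to 2.60 TPM and ccnd1 at 0.824 to 2.99 TPM, so the sizes of their differences are uncertain.

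Of 27 genes of the ubiquitin ligases that destroy cyclins and of the spindle checkpoint, the APC/C inhibitor fbxo5 (1.96) and mad2l1 (1.70) were higher in *X. laevis* eggs. The 8 that were lower were anapc4 (-2.33), anapc15 (-2.26), fzr1 (-2.00), bub1 (-1.85), anapc10 (-1.36), btrc (-1.29), ube2c (-1.10) and anapc5 (-1.09). Of 6 factors that act at the start of DNA replication, topbp1 (-1.74), recql4 (-1.40) and ticrr (-1.05) were lower and 0 higher. Each list is to be read against the 43.6% called among all sums, and these sums also rest on different entries in each species. Of the sperm's entries in these 5 lists, 4 of 112 *X. laevis* entries were detected in te × ls (cks2, plk1, gadd45a and fbxo5) and 3 of 73 *X. tropicalis* entries in le × ts (cks2, ccnb3 and fbxo5), beside the 2.3% and 1.62% of all entries. The *X. tropicalis* fbxo5 entry, for example, was at 2.09 and 1.59 TPM in le × ts and listed at 0 in *X. laevis*.

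The patterns most like that of ccnb1 were looked for in each species, by the root mean square distance between log2 values centred over the 8 libraries. These centred values are dominated by the presence or absence of the species' own egg, so genes of like abundance in that egg lie close together. For *X. laevis* ccnb1, the nearest of 10289 symbols were ddx39a (distance 0.20), ccna1 (0.27), hist1h2am (0.34), rcc1 (0.42) and mkrn3 (0.43). For *X. tropicalis* ccnb1, the nearest of 10056 were ccna1 (0.16), ccnb2 (0.17), npm1 (0.19), gpnmb (0.19) and spdyc (0.20). ccna1 was among the 5 nearest in both species.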

How the data were processed

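The authors ran Bowtie 1.0 against the transcripts of both species at once, allowing no mismatch and 1 target per read, and deposited TPM estimated with RSEM 1.2.19. The submitters' processing notes also name BWA 0.7.10, whose role is not given in the sources used here. No genome build or annotation was used.

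Groups and replicate numbers came from the sample labels, and the members and gene lists were chosen with earlier results of these data known. Deposited TPM values, or their sums per symbol over the egg species, were analysed as log2(TPM + 1) with limma 3.58.1 (lmFit, eBayes with trend) in R 4.3.3, keeping features at 1 TPM or more in 2 libraries. Entries were fitted on the 4 libraries of a cross. The sums of 9685 symbols present in both species were fitted on all 8 libraries. Calls required a Benjamini-Hochberg adjusted p under 0.05 over all tested and an absolute log2 difference above 1. limma replaced the study's edgeR because TPM are not counts. The code was tested on simulated data.

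Of the 42 member entries, the 36 that reached 5 TPM in both libraries of any group are given with all values in their own species. From the other lists, called genes are named, with up to 3 per list that changed more than 2-fold without overlap, and for the most abundant member of each species the 5 nearest symbols. Relative reads came from entries at 0.03 to 0.3 TPM.

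Alternatives were pseudocounts of 0.1 and 0.5, no filter or 5 TPM, quantile normalization, TPM rescaled to the egg species, a block for the replicate number, a fit without a mean trend, other sets of libraries in the fit and each library left out. Other detection levels, and detection with a library left out, were added after seeing the data.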

Additional observations from a re-analysis of the deposited data

How the results depend on the processing

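Between egg species, ccnb2, cdc25a and cdc25c were called under all 16 alternatives, and the number of sums called there was 3935 to 4440. No member sum was called in a hybrid under any alternative. The 0 calls of te × ls sums, and of the difference between the crosses, did not change. In the fit of sums the replicate block took the same difference between numbers 1 and 3 for both egg species. It could not account for differences between numbers that were particular to 1 cross, so nothing is read from the unchanged 0 under this block. For le × ts sums, leaving out 1 library gave 0 to 202 calls, the 202 (8 higher, 194 lower) without le × ts replicate 1, when that group rests on replicate 3, which had fewer reads and is assumed to vary like the other groups. By entry, le × ts against *X. laevis* gave 4 calls with all 4 groups in 1 fit and 0 to 1 without 1 library. For te × ls against *X. tropicalis* there were 230 with a pseudocount of 0.1, 26 with 0.5, 183 without a mean trend, 133 with all 4 groups in 1 fit and 0 to 30 without 1 library, the 30 without *X. tropicalis* replicate 3.

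The replicate block gave 141 calls in le × ts (116 higher, 25 lower) and 454 in te × ls (332 higher, 122 lower), where the deviations of like-numbered libraries correlated at 0.76 and 0.84. With 2 pairs and no label of shared origin, the numbers are not established as pairs. Under the replicate block the 2 *X. laevis* ccne2 entries tested in te × ls had adjusted p values of 0.00894 and 0.0312 (limma). These entries passed the filter only through te × ls and had to lie higher, so nothing is read from those values. The block changed no other call of a member. The cdc25b difference between egg species passed 2-fold without le × ts replicate 3 (1.01, adjusted p = 0.0149 with limma). Counting each value under each alternative, an uncalled member value did not keep its direction in 85 cases. In 1016 cases a member value kept its direction or call, and in 9 it became called.

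The sperm's member entries detected in te × ls were 4 of 28 at 0.5 TPM and 0 of 26 at 5 TPM. The shares of all *X. laevis* entries counted were 3.65% and 0.490%. Without 1 library the members were 4 to 5 of 27, beside 2.33% to 3.14%. In le × ts they were 1 of 13 at 0.5 TPM and 0 of 10 at 5 TPM. The shares of all *X. tropicalis* entries counted were 2.38% and 0.589%. Without 1 library the members were 0 to 2 of 11, beside 1.69% to 3.72%. Absolute depth is unknown from TPM, so no counting limit can be given for these low values.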
